A study of Mus musculus with 37 samples.

Results

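Calorie restriction without a running wheel (CR) was compared with ad libitum feeding plus voluntary wheel running (AL+EX) in whole mammary glands of the mouse. All arrays whose diet label was CR or AL+EX were taken, 9 of each, which makes 18 of the 37 arrays in the series. The mice were female C57BL/6 animals, 9 weeks old when they were randomized and followed for 6 weeks. CR mice had 70% of the calories of ad libitum (AL) mice with all other nutrients at 100%, and no wheel. AL+EX mice ate freely and had a wheel. The other arrays came from 10 AL mice, which ate freely without a wheel, and 9 CR+EX mice, which had both treatments. RNA of an animal came from the left and right thoracic glands pooled (about 60 mg each), so each array is 1 animal and a mixture of all cells of the gland. Neither the distance run, nor the hours of feeding, nor the hour at which the glands were taken is among the labels, and in the text below CR and AL+EX are set against each other directly, so that diet and running differ at once.

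Calorie restriction and running both change the balance of energy intake and use, the first by lowering intake and the second by raising use. The mammary gland of a virgin mouse is mostly fat tissue with a tree of epithelial ducts, and its fat cells make fatty acids from glucose after a meal and release them during fasting. Nearly every cell of the gland also holds a circadian clock, a loop of transcription factors whose phase in peripheral tissues follows the time of feeding.

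Markers of fat and of ductal epithelium were detected, as were those of skeletal muscle. Over the 18 arrays the median signal (linear intensity, in the authors' scaling) was 15991 for Adipoq, the adipocyte hormone adiponectin, 2338 for the luminal keratin Krt8 and 345 for the basal keratin Krt14. It was 26147 for Acta1, the actin of skeletal muscle. The animal numbers in the titles fall into 4 runs that each hold CR and AL+EX animals, and nothing in the labels calls these runs batches. The numbers go up from AL over AL+EX and CR to CR+EX inside every run, so that an animal's place in its run and its group cannot be told apart. Both groups held 4 arrays rich in B lymphocyte genes. The mean log2 level of the B lymphocyte list was 7.69 to 9.48 on those 8 arrays and 6.45 to 6.82 on the other 10. The third run stood apart. Its 2 AL+EX arrays (AL+EX replicates 6 and 7) had ratios of the 3' to the 5' signal of Actb, a measure of RNA integrity, of 1.68 and 1.69, while the other 16 arrays lay between 0.753 and 1.22. On the same 2 arrays the mean log2 level of the 13 adipocyte genes was 12.26 and 12.06, while on the 3 CR arrays of that run it was 12.92 to 13.07. Over all runs the Actb ratio had a median of 1.01 in CR (0.753 to 1.17) and 1.15 in AL+EX (1.02 to 1.69). In run 4 it was 0.753 to 0.983 in CR and 1.03 to 1.04 in AL+EX, while the groups overlapped in runs 1 and 2.

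**Figure D1:**
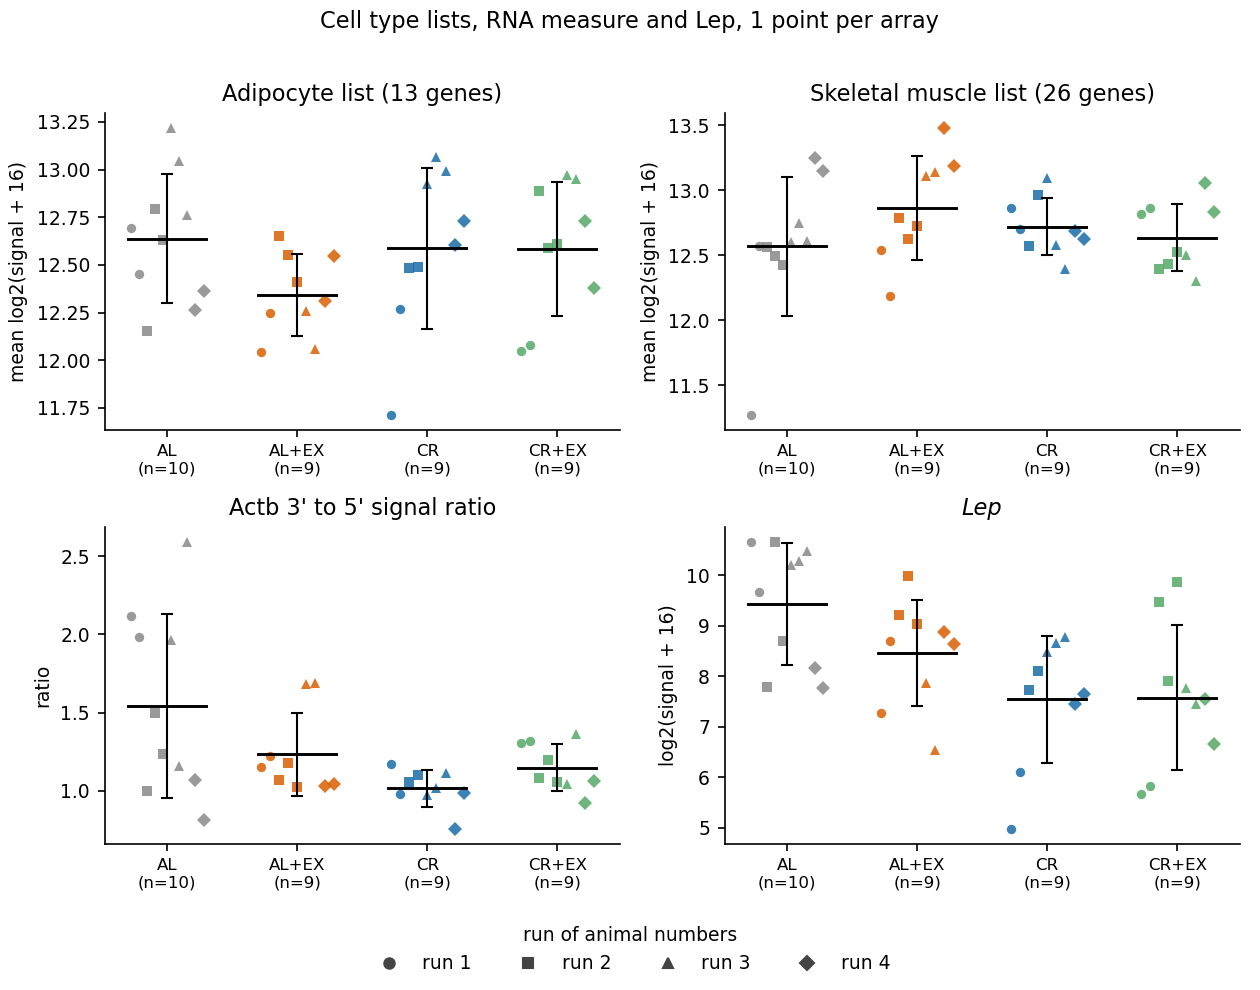
The mean log2(signal + 16) of the adipocyte list (13 genes) and of the skeletal muscle list, the Actb 3' to 5' signal ratio and the log2(signal + 16) of Lep are plotted for every array of the 4 groups. The muscle mean is over the 27 list genes on the array, while the panel title counts the 26 tested. Black lines are group means, bars are 1 SD and the marker shape gives the run of animal numbers. The 2 AL+EX arrays of run 3 (triangles) had Actb ratios of 1.68 and 1.69 and adipocyte means below those of all 3 CR arrays of that run.

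In the comparison over all genes 183 of 9295 genes passed the threshold (1.97%), 90 higher in CR (0.968%) and 93 lower in CR (1%). The test was limma's moderated test on log2(signal + 16), with p-values adjusted by Benjamini and Hochberg over the 9295 genes and a threshold of 0.05. Genes of fat synthesis and of the sterol pathway were among the higher ones and the clock genes Nr1d1 and Dbp among the lower ones. Of the 183 genes, 102 differed by over 1.5-fold and 19 by over 2-fold. The median difference over all genes was -0.02 on the log2 scale. The share of higher calls depended on the scaling. It was 49.2% as deposited, 56.8% after quantile normalization (75 higher and 57 lower) and 82.2% after each array was centred on its median (74 higher and 16 lower).

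The count rested strongly on the third run. Without its 10 arrays, 5 of them CR or AL+EX, no gene passed (limma, 630 genes with an unadjusted p under 0.05), and without AL+EX replicates 6 and 7 only 12 genes did. Leaving out 1 array gave counts from 56 to 295. The count fell by over 1.5 times without AL+EX replicate 2 (110 genes), 4 (120), 6 (56) or 7 (62) and without CR replicate 3 (118), 4 (112), 5 (93), 6 (100), 7 (86) or 8 (101), and it rose to 295 without CR replicate 1. Without the 15 arrays rich in B lymphocyte genes, 8 of them CR or AL+EX, 13 genes passed. When the run entered the fit as a block 753 genes passed (8.1%), 373 higher (4.01%) and 380 lower (4.09%), all of the 183 among them. With that block and without the third run 10 genes passed (0.108%), of which 9 were among the 183. The 10 were Aacs, Elovl6, Me1, Gpx8, Cables1, Mrap and Serpinh1, higher in CR, and Ccdc77, Prrc1 and Ranbp2, lower in CR. Serpinh1, a collagen chaperone, was the one outside the 183.

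Most called genes had 1 direction throughout. The difference had the same sign in all 4 runs for 179 of the 183 called genes, while over all genes tested this held for 2386 (25.7%). The called genes were chosen on these same arrays, which raises their share. For 149 of the 183 genes the largest of the 4 run differences was that of the third run, against 4413 of all 9295 genes (47.5%). A test of whether the difference itself varied between runs passed for 154 of all genes (1.66%) and for 11 of the 183. The plot of run differences shows the third run farthest from 0 for 16 of the 20 genes with the largest differences.

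**Figure D2:**
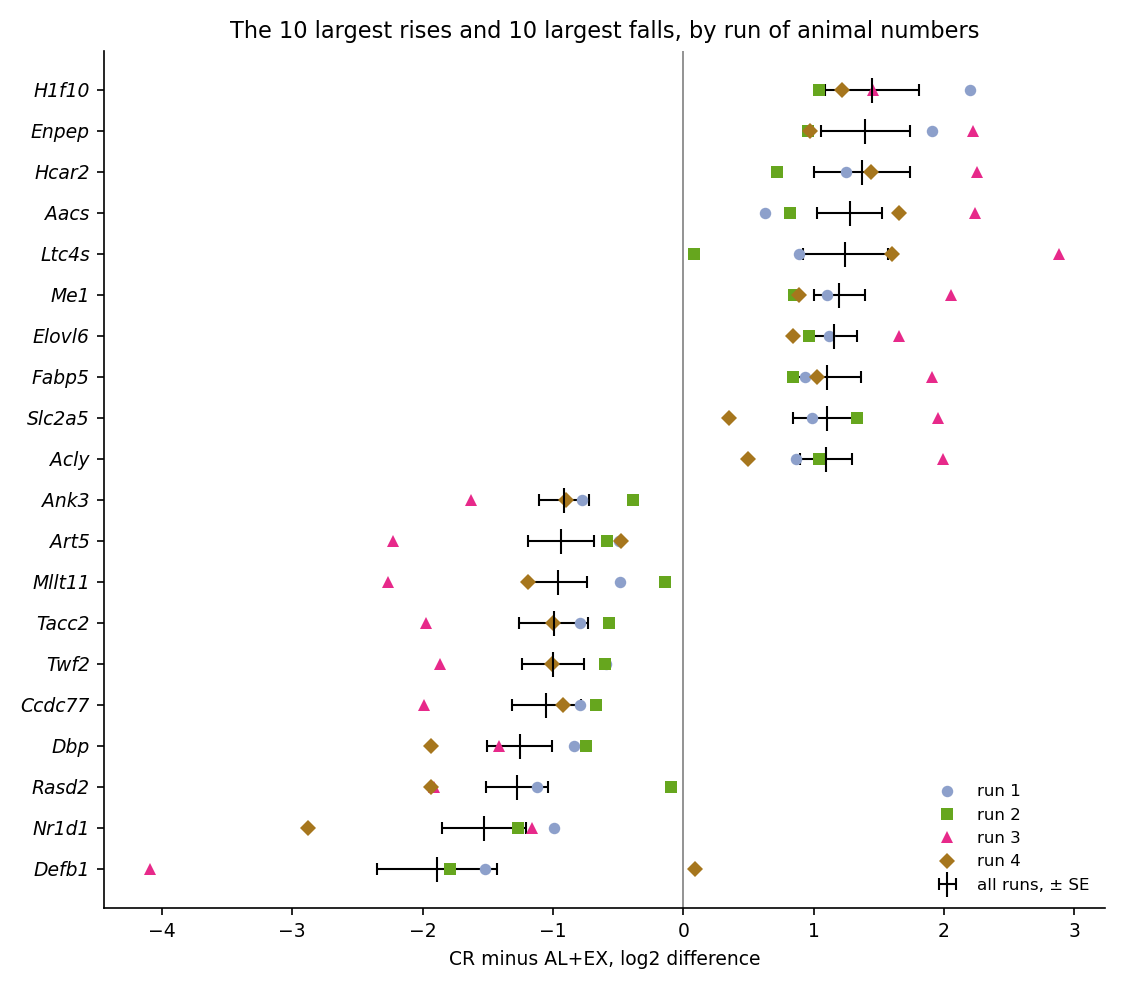
The log2 difference CR minus AL+EX is plotted for the 10 largest rises and the 10 largest falls among the 183 called genes, with 1 coloured point for each run of animal numbers and a black bar for the fit over all runs (± SE). Elovl6 ranges from 0.85 in run 4 to 1.66 in run 3, and Defb1 from -4.09 in run 3 to 0.09 in run 4.

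Each group was also set against the sedentary ad libitum mice. Of 9295 genes, 41 passed in CR minus AL (0.441%), while none passed in AL+EX minus AL (limma, 600 genes with an unadjusted p under 0.05). None passed in AL+EX minus AL with the run as a block either, where 573 passed in CR minus AL (6.16%). These comparisons share the 10 AL arrays, and their difference is the comparison of CR with AL+EX itself. The Actb 3' to 5' ratio had a median of 1.36 in AL (highest 2.59), 1.15 in AL+EX and 1.01 in CR. The same ratio of Gapdh reached 7.03 in AL, 1.49 in AL+EX and 1.32 in CR. The part of RNA integrity in the differences from AL was not tested. The count in CR minus AL was 0 without the third run. For the genes described below both differences from AL are given side by side where they add to the comparison.

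**Figure D3:**
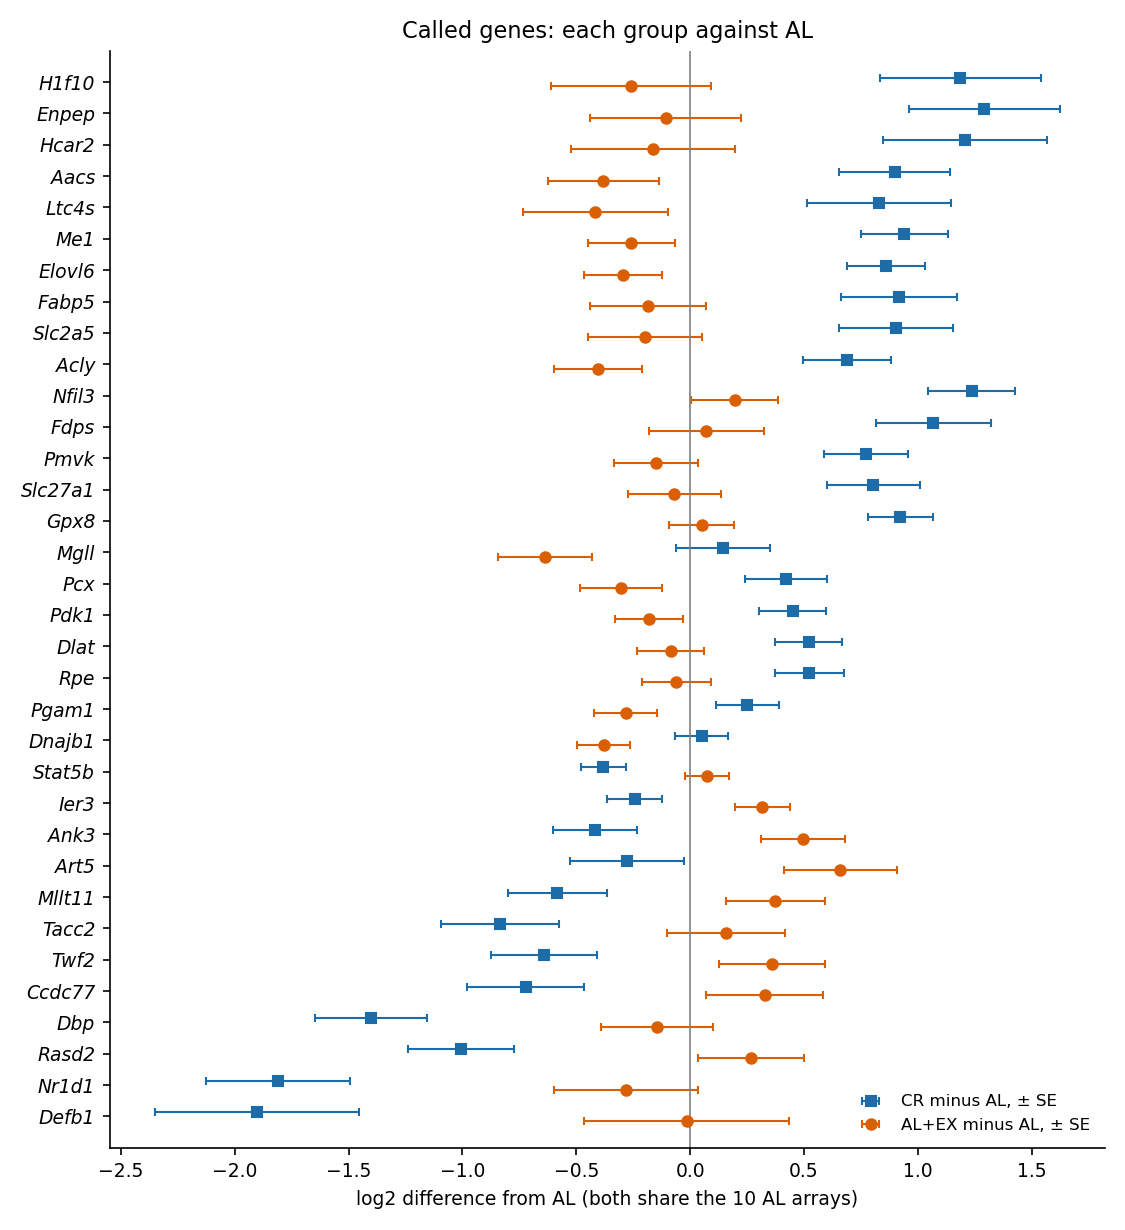
For the 34 genes that passed in CR minus AL+EX and were named by the rule, the log2 difference of CR from AL (squares) and of AL+EX from AL (circles) is plotted with its SE. Both use the same 10 AL arrays. Nr1d1 lies at -1.81 in CR and -0.28 in AL+EX, and Mgll at 0.15 and -0.64.

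Clock genes differed in both directions. Of 16 tested genes of the circadian clock, 1 was higher in CR (Nfil3) and 2 were lower (Nr1d1 and Dbp), beside 0.968% and 1% of all genes, and the list median was -0.19 against -0.02 over all genes. Nr1d1 encodes REV-ERB alpha, which represses the clock activator gene Arntl. Its signal was 50 at the lowest, 260.1 at the median and 488.7 at the highest in CR, and 379.9, 762.1 and 1009 in AL+EX. The groups overlapped, with 7 of the 9 CR arrays below every AL+EX array. The log2 difference was -1.53 ± 0.32 (SE, n = 9 and 9), a 2.89-fold lower level with a limma adjusted p of 0.0095.

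Dbp, a transcription factor that the clock drives directly and that activates genes through D-box sites, did not overlap between the groups. Its signal ran from 250.5 over a median of 660.9 to 830.3 in CR and from 835.8 over 1350 to 2375 in AL+EX. All 9 CR arrays thus lay below all 9 AL+EX arrays, which held for 9 of all 9295 genes (0.0968%). The difference was -1.26 ± 0.25 (2.39-fold lower, limma adjusted p = 0.0063). Nfil3, a repressor that competes for the same D-box sites, ran the other way. Its signal was 245.9, 369.4 and 434.4 in CR (lowest, median and highest) and 104.2, 171.8 and 283.6 in AL+EX, and 8 of 9 CR arrays exceeded every AL+EX array. Nfil3 was higher by 1.04 ± 0.20 (2.06-fold, limma adjusted p = 0.0042).

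For these 3 genes AL+EX minus AL was -0.28 ± 0.32 for Nr1d1, -0.15 ± 0.25 for Dbp and 0.20 ± 0.19 for Nfil3, none past the threshold. CR minus AL was -1.81 ± 0.32, -1.401 ± 0.25 and 1.24 ± 0.19 for the same genes (limma adjusted p = 0.0027, 0.0027 and 0.00060). Other clock genes did not pass. Arntl, the activator partner of Clock, was at 0.39 ± 0.18 (limma adjusted p = 0.28), and Per2, a repressor of the loop, at -0.07 ± 0.26 (adjusted p = 0.93). The sign of Per2 flipped under several settings given further down. Under the run block 5 of the 16 were lower and 1 higher, beside 4.09% and 4.01% of all genes, the additional ones being Nr1d2 (-0.52), the relative of Nr1d1, Per3 (-0.52) and the repressor Bhlhe40 (-0.42), all 3 named after their values were seen.

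In each of the 4 runs Nr1d1 was lower (-0.99, -1.27, -1.16 and -2.88), Dbp was lower (-0.84, -0.74, -1.42 and -1.93) and Nfil3 was higher (0.75, 0.95, 0.83 and 1.49). For these 3 genes the difference in run 4, not in run 3, was the largest. No single array ended these calls, with adjusted p up to 0.024 for Nr1d1, 0.018 for Dbp and 0.013 for Nfil3. Without the third run the adjusted p was 0.24, 0.33 and 0.23, with differences of -1.71, -1.16 and 1.07 that were about as large as before. Dbp and Nfil3 kept their calls without AL+EX replicates 6 and 7 (adjusted p = 0.046 and 0.0092), and Nr1d1 did not (0.061).

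Further genes tied to the clock or to its targets were chosen after their values were seen. Usp2, a deubiquitinase whose gene follows the clock in many tissues, had signals of 955.4, 1762 and 2042 in CR and 2130, 2485 and 3113 in AL+EX, with no overlap. It was lower in CR by -0.71 ± 0.17 (limma adjusted p = 0.022). AL+EX minus AL was 0.51 ± 0.17 (adjusted p = 0.63) and CR minus AL was -0.20 ± 0.17 (adjusted p = 0.63), neither past the threshold. Csnk1e, a kinase that marks period proteins for degradation, was lower in CR by -0.43 ± 0.12 (adjusted p = 0.044), a call lost when any of 13 arrays was left out.

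**Figure D4:**
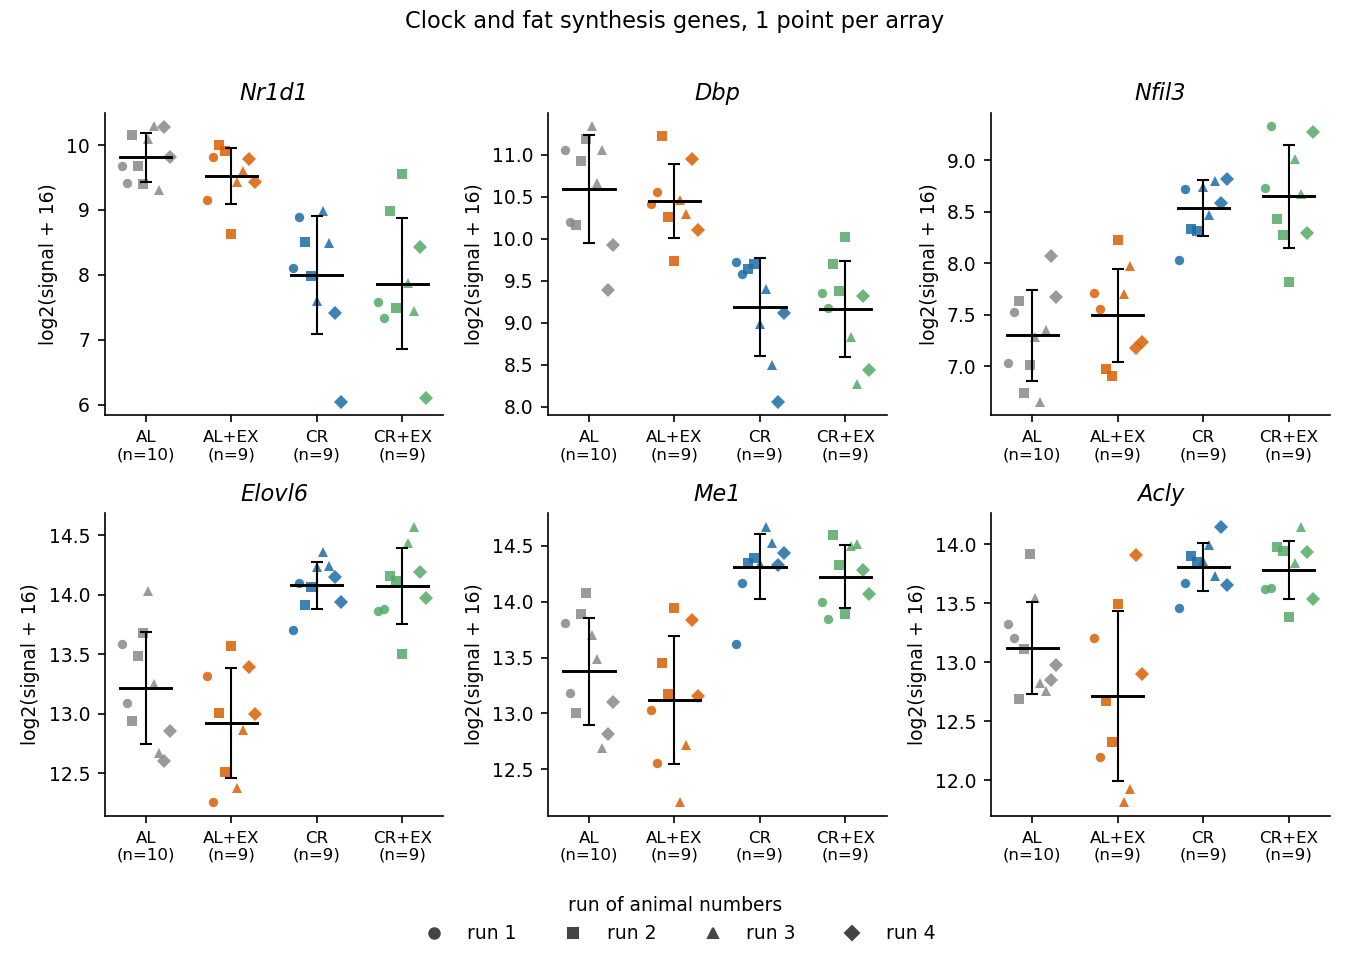
The log2(signal + 16) of Nr1d1, Dbp, Nfil3, Elovl6, Me1 and Acly is plotted for every array of AL, AL+EX, CR and CR+EX. Black lines are group means, bars are 1 SD, and the marker shape gives the run of animal numbers. The CR and AL+EX points do not overlap for Dbp and Elovl6, and for each of the 6 genes the AL+EX mean lies nearer to AL than to CR. For Elovl6, Me1 and Acly the AL mean lies between those of AL+EX and CR.

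Genes of fat synthesis were higher in CR than in AL+EX at several steps of the pathway. Of 24 tested genes of fatty acid and triglyceride synthesis, 6 were higher in CR and none was lower, beside 0.968% of all genes that were higher, and 22 of the 24 differences were above 0. The list median was 0.44 against -0.02 over all genes. Set against AL, it was 0.25 in CR and -0.20 in AL+EX, beside -0.04 and -0.02 over all genes, so the groups lay on opposite sides of AL. The mean log2 level of the list was 11.40 to 12.05 over the CR arrays (median 11.88) and 11.07 to 11.74 over the AL+EX arrays (median 11.32). The 6 genes span the route from citrate and acetate to triglyceride.

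Acly cleaves citrate into the acetyl-CoA from which fatty acids are built. Its signal was 11275, 14740 and 18146 in CR and 3581, 6509 and 15391 in AL+EX (lowest, median and highest). All 9 CR arrays lay above the AL+EX median, and 2 above its highest array. The log2 difference was 1.09 ± 0.20 (2.13-fold, limma adjusted p = 0.0042), with 3 of 4 other probe sets of the gene in the same direction. Acss2, which makes acetyl-CoA from acetate and was chosen after its values were seen, had signals of 2905, 3950 and 6971 in CR and 1114, 1838 and 5132 in AL+EX. Acss2 was higher by 1.07 ± 0.28 (adjusted p = 0.037), and 9 of 18 fits without 1 array lost this call.

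Me1, the malic enzyme that supplies cytosolic NADPH for fat synthesis, had signals of 12603, 20846 and 26043 in CR and 4709, 9127 and 15713 in AL+EX. In CR 8 of 9 arrays lay above every AL+EX array. Me1 was higher by 1.20 ± 0.20 (2.29-fold, limma adjusted p = 0.0016). Elovl6, the elongase that lengthens palmitate to stearate, had signals of 13363, 17539 and 21008 in CR and 4876, 8189 and 12113 in AL+EX. The groups did not overlap, which held in this direction for 7 of all genes (0.0753%). Elovl6 was higher by 1.16 ± 0.18 (2.23-fold) and had the smallest p-value of the comparison (limma adjusted p = 0.00086). Its differences were 1.12, 0.96, 1.66 and 0.85 in the 4 runs.

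Tecr and Hsd17b12 act beside the elongases in fatty acid elongation and were chosen after their values were seen. Tecr, the reductase of the last step, was higher by 0.75 ± 0.19 (limma adjusted p = 0.025) and Hsd17b12, the ketoreductase, by 0.61 ± 0.12 (adjusted p = 0.0078). In both genes most CR arrays lay above every AL+EX array, 8 for Tecr and 7 for Hsd17b12.

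Dgat2, which adds the last acyl chain of triglyceride, was also chosen after its values were seen. Its signal was 9423, 15378 and 25414 in CR and 8673, 10563 and 12570 in AL+EX, and 8 CR arrays exceeded every AL+EX array. The difference was 0.66 ± 0.16 (adjusted p = 0.020). AL+EX minus AL was -0.46 ± 0.15 (adjusted p = 0.63) and CR minus AL was 0.20 ± 0.15 (adjusted p = 0.58). Aacs, which activates the ketone body acetoacetate for lipid synthesis, had signals of 1769, 3587 and 4552 in CR and 755.0, 1438 and 2844 in AL+EX, and 7 CR arrays exceeded every AL+EX array. Aacs was higher by 1.28 ± 0.25 (limma adjusted p = 0.0053), with both other probe sets in the same direction.

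The enzymes best known for fat synthesis did not pass. Fasn, the fatty acid synthase, was at 0.38 ± 0.18 (limma adjusted p = 0.28), with 18687, 28758 and 33756 in CR and 14368, 18838 and 33703 in AL+EX. Scd1, the main desaturase, was at -0.09 ± 0.25 (adjusted p = 0.90), and its sign flipped under several settings. The regulators also missed the threshold: Srebf1 was at 0.24 ± 0.17 (adjusted p = 0.52) and Mlxipl, the carbohydrate-responsive factor ChREBP, at 0.40 ± 0.12 (adjusted p = 0.086). Both were chosen after their values were seen. Under the run block, in which 4.01% of all genes were higher, 10 of the 24 genes were higher and none lower, the added ones being Acacb, Elovl5, Fads1 and Mlxipl.

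Without the third run none of the 24 genes passed, while the list median was 0.41. With the block and without that run Aacs (1.00), Elovl6 (0.98) and Me1 (0.94) passed. Without AL+EX replicates 6 and 7, 3 genes passed, and with the mean of the adipocyte list as a covariate 5 did. Elovl6, Me1, Acly and Aacs kept their calls in every fit without 1 array, with a highest adjusted p of 0.0039, 0.0062, 0.014 and 0.021, and Dgat2 lost its call in 1 of those 18 fits. In whole glands, more fat cells and more RNA of these genes per fat cell cannot be told apart.

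**Figure D5:**
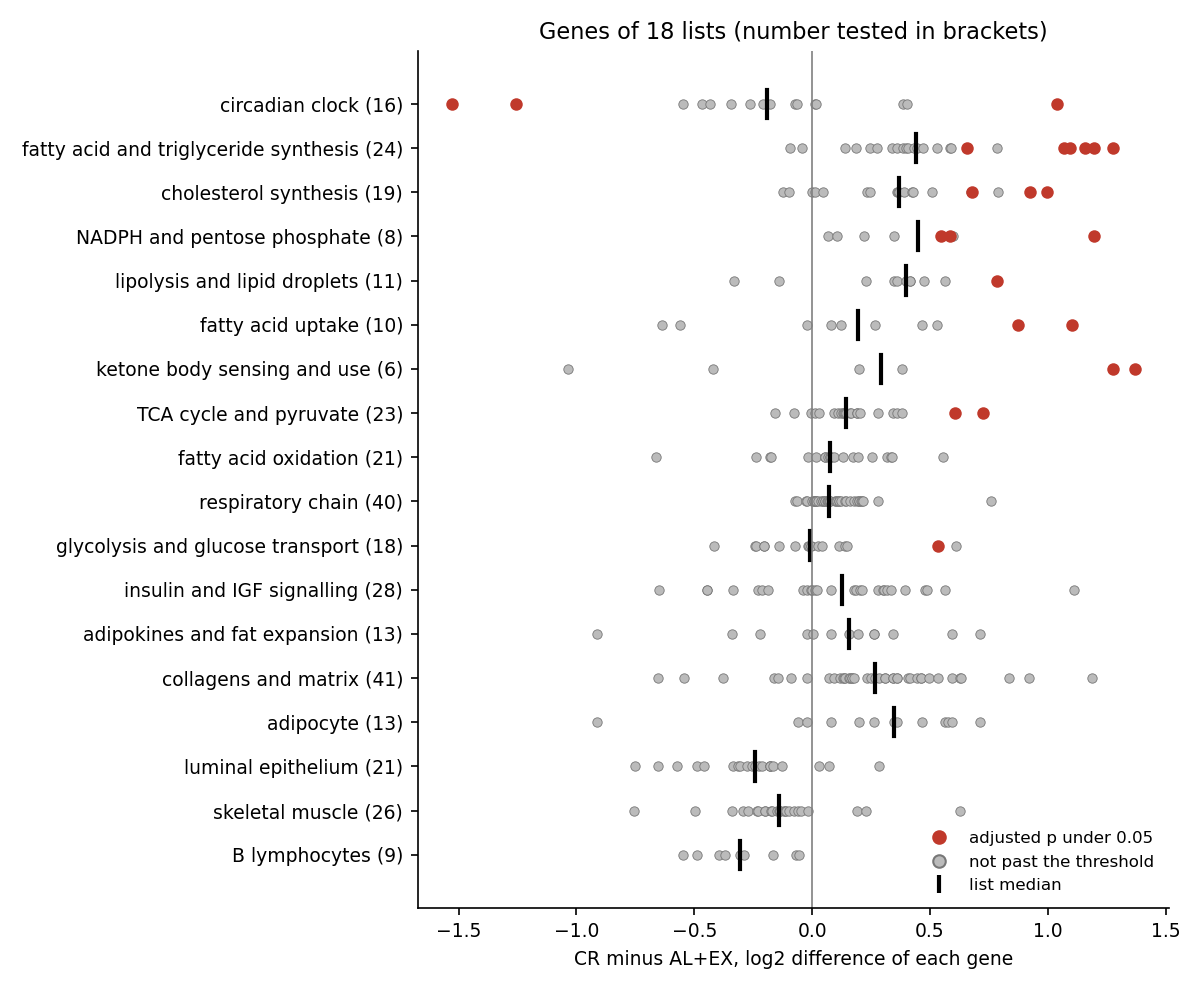
Each point is the log2 difference CR minus AL+EX of 1 gene, for 18 gene lists with the number of tested genes in brackets. Red points passed the threshold, grey points did not, and the black tick is the list median. The fatty acid and triglyceride synthesis list has 6 red points, all above 0, and a median of 0.44.

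Genes of sterol synthesis and NADPH supply were also higher in CR. Of 19 tested genes of cholesterol synthesis 3 were higher in CR and none lower, beside 0.968% and 1% of all genes. The list median was 0.37, and 16 of the 19 differences were above 0, beside 46.7% of those of all genes. Set against AL, the list median was 0.15 in CR and -0.12 in AL+EX. Pmvk, the second kinase of the mevalonate pathway, had signals of 454.6, 775.4 and 982.4 in CR and 244.7, 352.9 and 695.5 in AL+EX, and 6 CR arrays exceeded every AL+EX array. It was higher by 0.92 ± 0.19 (1.90-fold, limma adjusted p = 0.0074). Nsdhl, a sterol dehydrogenase chosen after its values were seen, was higher by 0.68 ± 0.13 (adjusted p = 0.0042). Fdps, which makes farnesyl diphosphate, was higher by 1.00 ± 0.26 (adjusted p = 0.036). The 1 other probe set of Fdps went the opposite way, the call was lost with the mean of all probe sets (adjusted p = 0.084), and 11 of 18 fits without 1 array lost it too.

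All 8 genes of the NADPH and pentose phosphate list lay above 0 (median 0.45). Of these 3 passed, beside 0.968% of all genes that were higher: Me1, also counted in the fat synthesis list, Rpe and Taldo1. Set against AL, the list median was 0.27 in CR and -0.21 in AL+EX. Taldo1, the transaldolase of the pentose phosphate pathway, was chosen after its values were seen. It had signals of 4187, 5280 and 6197 in CR and 2874, 3414 and 4682 in AL+EX, and 8 CR arrays exceeded every AL+EX array. It was higher by 0.55 ± 0.12 (limma adjusted p = 0.014). Rpe, the epimerase of that pathway, was higher by 0.58 ± 0.15 (adjusted p = 0.040), with 1 of 2 other probe sets on the same side of 0. Its difference was down to 0.14 with the mean of all probe sets (adjusted p = 0.63). Nadk, the kinase that makes NADP from NAD, and Coasy, the last enzyme of coenzyme A synthesis, were chosen after their values were seen. Nadk was higher by 0.47 ± 0.11 (adjusted p = 0.022) and Coasy by 0.52 ± 0.13 (adjusted p = 0.024).

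Under the run block 6 of the 19 sterol genes were higher and none lower, beside 4.01% and 4.09% of all genes, the added ones being Cyp51, Sc5d and Sqle. Without the third run no gene of either list passed (medians 0.28 and 0.37). With the adipocyte mean as a covariate Pmvk (0.82), Nsdhl (0.58), Me1 (1.02) and Taldo1 (0.47) still passed, and Fdps and Rpe did not.

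Genes that bring fatty acids into the cell, break down stored fat or sense ketone bodies were higher in smaller number. In the fatty acid uptake list 2 of 10 genes were higher and none lower (median 0.19), beside 0.968% and 1% of all genes. In the list of lipolysis and lipid droplets 1 of 11 was higher and none lower (median 0.40). In the ketone body list 2 of 6 were higher and none lower (median 0.29). These were Hcar2 and Aacs, and Aacs was also counted in the fat synthesis list. Under the run block, in which 4.01% of all genes were higher and 4.09% lower, the uptake list had 3 higher and 1 lower (Fabp3, -0.59), the lipolysis list 5 higher and none lower, and the ketone body list 3 higher and 2 lower (Bdh1, -0.97, and Oxct1, -0.39). Fabp5, a cytosolic fatty acid carrier, had signals of 6290, 7848 and 10838 in CR and 2051, 3796 and 8584 in AL+EX. It was higher by 1.10 ± 0.26 (2.15-fold, limma adjusted p = 0.020). Slc27a1, the fatty acid transporter FATP1, was higher by 0.87 ± 0.21 (adjusted p = 0.021). Its difference varied between runs (0.35, -0.01, 2.26 and 1.05, adjusted p of the difference between runs = 0.0014), so that runs 3 and 4 carried it.

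Mgll, the lipase of the last step of triglyceride breakdown, had signals of 4314, 7709 and 11785 in CR and 1743, 5039 and 8565 in AL+EX. It was higher by 0.78 ± 0.21 (limma adjusted p = 0.042). CR minus AL was 0.15 ± 0.21 and AL+EX minus AL was -0.64 ± 0.21 (adjusted p = 0.80 and 0.63). Hcar2, a receptor for beta-hydroxybutyrate that restrains lipolysis, had signals of 209.0, 456.3 and 825.5 in CR and 51.1, 139.6 and 476.4 in AL+EX, and was higher by 1.37 ± 0.37 (2.59-fold, adjusted p = 0.042). Bdh1, which interconverts acetoacetate and beta-hydroxybutyrate, was at -1.03 and did not pass in the fit without a block, but was lower under the run block (limma adjusted p = 0.036). Its CR arrays all lay below all AL+EX arrays, and it was chosen after its values were seen.

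Leaving out 1 array ended the call of Mgll in 12 of 18 fits and that of Hcar2 in 13. Without the third run the differences were 0.89 for Fabp5, 0.40 for Slc27a1, 0.51 for Mgll and 1.00 for Hcar2, and none passed with the adipocyte mean as a covariate (adjusted p = 0.060, 0.066, 0.11 and 0.11).

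The promoters of 3 of these metabolic genes are shown because they hold an E-box, a site that the clock activators bind. The sequences are RefSeq's for the build GRCm38.p6 and run from 250 bases before to 50 after the start of the gene. The motif searched was CACGTG, which reads the same on both strands, and the capitals mark it. Mgll lies at chr6:88724162-88724461 on the plus strand with the E-box at -44 from the start of the gene. Slc27a1 lies at chr8:71570344-71570643 (plus) with the E-box at -202, and Pcx, described below, at chr19:4510222-4510521 (plus) with the E-box at -248.
Mgll: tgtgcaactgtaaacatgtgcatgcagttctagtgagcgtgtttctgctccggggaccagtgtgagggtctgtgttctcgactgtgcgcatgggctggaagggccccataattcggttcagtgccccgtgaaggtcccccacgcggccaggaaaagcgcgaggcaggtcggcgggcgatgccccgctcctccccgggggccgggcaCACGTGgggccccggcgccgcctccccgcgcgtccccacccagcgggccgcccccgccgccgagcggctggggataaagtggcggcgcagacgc
Slc27a1: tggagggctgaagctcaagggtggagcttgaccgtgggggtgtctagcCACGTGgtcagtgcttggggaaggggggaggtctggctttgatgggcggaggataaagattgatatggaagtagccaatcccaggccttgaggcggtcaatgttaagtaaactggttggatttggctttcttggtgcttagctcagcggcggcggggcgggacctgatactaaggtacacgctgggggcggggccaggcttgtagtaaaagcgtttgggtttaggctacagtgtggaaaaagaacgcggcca
Pcx: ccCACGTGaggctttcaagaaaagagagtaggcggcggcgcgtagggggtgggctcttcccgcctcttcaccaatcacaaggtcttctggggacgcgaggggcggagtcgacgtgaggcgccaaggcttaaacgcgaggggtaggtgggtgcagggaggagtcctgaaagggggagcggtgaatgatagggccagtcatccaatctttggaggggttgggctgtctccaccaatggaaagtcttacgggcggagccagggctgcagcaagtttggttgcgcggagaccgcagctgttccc

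Among the 183 called genes 153 had a promoter in the table, and 21 of these held an E-box (13.7%), against 882 of 7510 tested genes (11.7%) and 2349 of all 32851 promoters of that length (7.15%). The D-box, searched as TTANNTAA on both strands, was in 5 of the 153 (3.27%), against 337 of the 7510 tested genes (4.49%) and 6.00% of all promoters. The Slc27a1 sequence above also holds a D-box match, which the capitals do not mark. The sterol response element TCACNCCAC, searched on both strands, was in 3 of the 153 (1.96%), against 1.49% of tested genes and 1.24% of all promoters. Mgll, Slc27a1 and Pcx have other start sites in the table, whose windows hold no E-box. The windows of Nr1d1, Dbp, Nfil3, Elovl6, Me1, Acly, Aacs and Pmvk held no E-box either. That of Art5, a gene lower in CR, held 1 at -69. A match is a description of the letters in this window only.

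Pcx and Dlat, which act on pyruvate in the mitochondrion, were higher in CR. Of 23 genes of the TCA cycle and pyruvate list 2 were higher and none lower (median 0.14), beside 0.968% and 1% of all genes. Of 18 glycolysis genes 1 was higher and none lower (median -0.01). Pcx, pyruvate carboxylase, which refills the cycle with oxaloacetate and so supplies citrate for export, had signals of 10888, 15815 and 21858 in CR and 7276, 10176 and 12831 in AL+EX. In CR 8 arrays exceeded every AL+EX array. Pcx was higher by 0.73 ± 0.19 (1.65-fold, limma adjusted p = 0.031).

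Dlat, a subunit of pyruvate dehydrogenase, had signals of 3050, 4133 and 6399 in CR and 1746, 2588 and 4123 in AL+EX. It was higher by 0.61 ± 0.15 (adjusted p = 0.027) and even over the runs (0.57, 0.84, 0.57 and 0.46). Mpc1, a subunit of the mitochondrial pyruvate carrier chosen after its values were seen, was higher by 0.45 ± 0.11 (adjusted p = 0.029). Pgam1, a glycolytic mutase, was higher by 0.53 ± 0.14 (adjusted p = 0.040), and Slc2a5, the fructose transporter, by 1.10 ± 0.26 (adjusted p = 0.019). Pdk1, a kinase that turns pyruvate dehydrogenase off, was higher as well, by 0.63 ± 0.15 (adjusted p = 0.022), and its relative Pdk4, which rises on fasting in many tissues, was at 0.13 ± 0.18 (adjusted p = 0.79).

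No gene passed among 21 of fatty acid oxidation (median 0.08) or among 40 of the respiratory chain (median 0.07), and under the run block 2 and 1 of them were higher, beside 4.01% of all genes. Without the third run the adjusted p was 0.50 for Pcx, 0.38 for Dlat, 0.52 for Mpc1 and 0.42 for Pgam1, and leaving out 1 array ended the calls in 8, 6, 7 and 11 of 18 fits.

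Beyond these lists the higher genes included secreted and membrane proteins of fat tissue and of other cells. H1f10, a linker histone, had the largest rise, with signals of 150.1, 467.7 and 684.8 in CR and 40.7, 159.6 and 341.9 in AL+EX. It was higher by 1.45 ± 0.36 (2.72-fold, limma adjusted p = 0.027). Enpep, the aminopeptidase that trims angiotensin II, was higher by 1.4 ± 0.34 (2.63-fold, adjusted p = 0.023), with all 9 CR arrays above the AL+EX median. Ltc4s, the leukotriene C4 synthase, was higher by 1.24 ± 0.33 (adjusted p = 0.037), but by 0.08 in run 2 and by 2.89 in run 3.

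Gpx8, a peroxidase of the endoplasmic reticulum, was higher in CR in every run. Its signal was 1356, 2154 and 2635 in CR and 619.4, 1124 and 1547 in AL+EX, and 8 CR arrays exceeded every AL+EX array. Gpx8 was higher by 0.87 ± 0.15 (limma adjusted p = 0.0016), with 0.53, 0.88, 0.76 and 1.14 in the 4 runs. With the block and without the third run it was at 0.86 (adjusted p = 0.043). AL+EX minus AL was 0.05 ± 0.14 for this gene, and CR minus AL was 0.92 ± 0.14 (adjusted p = 0.00060).

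Further higher genes, chosen after their values were seen, act on blood lipids or as fat hormones. Lipg, the endothelial lipase, was higher by 0.81 ± 0.14 (limma adjusted p = 0.0027), and Nrg4, a growth factor that fat cells secrete, by 0.88 ± 0.17 (adjusted p = 0.0052). Angptl8, an inhibitor of lipoprotein lipase induced by feeding, was higher by 0.65 ± 0.18 (adjusted p = 0.042). Without AL+EX replicates 6 and 7 the adjusted p was 0.0063 for Lipg, 0.067 for Nrg4 and 0.25 for Angptl8.

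The genes lower in CR came from many roles, and no list held more than 2 of them. Defb1, an antimicrobial beta-defensin of epithelia, had the largest difference. Its signal was 57.9, 143.5 and 687.1 in CR and 171.4, 529.5 and 2490 in AL+EX, and 7 CR arrays lay below every AL+EX array. Defb1 was lower by -1.89 ± 0.46 (3.70-fold, limma adjusted p = 0.023). It was at -1.52, -1.79 and -4.09 in runs 1 to 3 and at 0.09 in run 4. The 21 luminal epithelium genes had a median of -0.24, with none past the threshold, and -0.72 in run 3, and their part in the Defb1 difference was not tested.

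Rasd2, a small GTPase, had signals of 76.0, 211.9 and 425.9 in CR and 342.3, 526.8 and 674.0 in AL+EX, and 8 CR arrays lay below every AL+EX array. Rasd2 was lower by -1.27 ± 0.24 (2.42-fold, limma adjusted p = 0.0042). Rest, a transcriptional repressor of neuronal genes chosen after its values were seen, did not overlap between the groups. Its signal was 112.6, 172.0 and 208.8 in CR and 230.4, 325.3 and 393.3 in AL+EX. Rest was lower by -0.89 ± 0.17 (adjusted p = 0.0042) and steady over the runs (-0.74, -0.76, -1.17 and -0.77). CR minus AL was -0.93 ± 0.16 (adjusted p = 0.0027) and AL+EX minus AL -0.04 ± 0.16.

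Stat5b, a transcription factor of prolactin and growth hormone signalling, also did not overlap. Its signal was 545.4, 625.2 and 697.4 in CR and 701.2, 874.7 and 1083 in AL+EX, a difference of -0.45 ± 0.10 (1.37-fold, limma adjusted p = 0.014). Stat5b lost its call with the mean of its probe sets (limma adjusted p = 0.23), with median centring and without AL+EX replicates 6 and 7. It was the only one of 8 tested genes of hormone signalling to pass (list median -0.23), while 1% of all genes were lower. Ier3, an immediate early gene, was lower by -0.56 ± 0.12 (adjusted p = 0.014), the only one of 20 genes of its list (median -0.07). Ier3 also lost its call with median centring and without AL+EX replicates 6 and 7. Dnajb1, a heat shock cochaperone, was higher by 0.43 ± 0.12 (adjusted p = 0.046). It was the only one of 16 heat shock genes (median 0.14), while 0.968% of all genes were higher. This call was lost with median centring and in 14 of 18 fits without 1 array. AL+EX minus AL was -0.38 ± 0.12 (adjusted p = 0.63) and CR minus AL was 0.05 ± 0.12.

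Several lower genes are best known from skeletal muscle, which the glands contained in varying amounts. Art5 was lower by -0.94 ± 0.26 (limma adjusted p = 0.044). Art1, Trim54 and Coro6 were chosen after their values were seen and were lower by -0.80 ± 0.22, -0.86 ± 0.23 and -0.90 ± 0.21 (adjusted p = 0.048, 0.038 and 0.020). Art1 and Art5 encode ADP-ribosyltransferases and Trim54 a ubiquitin ligase of the muscle sarcomere. In Trim54 8 CR arrays lay below every AL+EX array, with 558.6, 810.1 and 1138 against 990.6, 1300 and 2811.

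None of the 26 tested genes of the skeletal muscle list passed, and their median was -0.14, with 0.10, 0.15, -0.50 and -0.58 in the 4 runs. The mean log2 level of the list was 12.39 to 13.10 over CR and 12.19 to 13.48 over AL+EX, and the difference of Acta1 was -0.11. With that mean as a covariate Art5, Art1, Trim54 and Coro6 still passed (adjusted p = 0.049, 0.042, 0.016 and 0.019). Without the third run none of the 4 did (adjusted p = 0.70, 0.70, 0.65 and 0.36), and leaving out 1 array ended the calls in 14, 12, 9 and 3 of 18 fits.

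The remaining genes of the 10 largest falls were Ccdc77 (-1.05 ± 0.26), Twf2 (-0.999 ± 0.24), Tacc2 (-0.99 ± 0.26), Mllt11 (-0.96 ± 0.22) and Ank3 (-0.91 ± 0.19). Ank3 encodes an ankyrin that anchors membrane proteins to the cytoskeleton and Twf2 an actin-binding twinfilin. In these 5 genes between 4 and 8 CR arrays lay below every AL+EX array. Their differences were largest in the third run, at -1.99, -1.87, -1.97, -2.27 and -1.63, and those of Mllt11 differed between runs (adjusted p = 0.022).

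Son, Scaf11, Rbm25 and Neat1 were also among the 93 lower genes. They were chosen after their values were seen, and no list of genes of their kind was examined. Son, Scaf11 and Rbm25, which act in splicing, were lower by -0.49 ± 0.13, -0.78 ± 0.21 and -0.70 ± 0.20 (limma adjusted p = 0.033, 0.047 and 0.047). Neat1, a long noncoding RNA that stays in the nucleus, was lower by -0.49 ± 0.14 (adjusted p = 0.048). In these 4 genes the difference of the third run was the largest (-0.88, -1.56, -1.51 and -0.83). The Actb 3' to 5' ratio of that run was 1.68 and 1.69 in AL+EX and 0.972 to 1.11 in CR. The part of RNA integrity in these differences was not tested.

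None of the 13 tested genes of the adipokine list passed, leptin among them (list median 0.16). Under the run block 1 was higher, beside 4.01% of all genes. Lep, the satiety hormone of fat cells, had signals of 15.3, 195.0 and 423.4 in CR and 77.2, 398.0 and 996.8 in AL+EX, with wide overlap. The difference was -0.91 ± 0.55 (limma adjusted p = 0.43). It was -2.45, -1.50, 1.44 and -1.21 in the 4 runs, and these differed (adjusted p of the difference between runs = 0.048). CR and AL+EX lay on the same side of AL, at -1.89 ± 0.54 and -0.98 ± 0.54, neither past the threshold (adjusted p = 0.074 and 0.75). With the adipocyte mean, of which Lep is 1 of 13 genes, as a covariate the difference was -1.63 (adjusted p = 0.016).

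Adipoq was at 0.26 ± 0.15 (limma adjusted p = 0.40), Sfrp5, a Wnt inhibitor of fat tissue, at 0.19 ± 0.29 (adjusted p = 0.82), and Mest, a gene of fat cell growth, at -0.02 ± 0.17 (adjusted p = 0.97). The signs of Mest and Sfrp5 flipped under some settings. Igf1 was at 0.40 ± 0.20 (adjusted p = 0.32), and none of 28 genes of insulin and IGF signalling passed (median 0.13). With the run as a block 3 of the 28 were higher (Igfals, Igfbp7 and Irs1) and 3 lower (Gsk3b, Tsc1 and Pik3ca), beside 4.01% and 4.09% of all genes. Ucp1, the uncoupling protein of brown fat, had signals of 2272, 9119 and 31661 in CR and 5634, 9080 and 26323 in AL+EX, and its difference was -0.24 ± 0.45 (adjusted p = 0.85). Ppargc1a, a coactivator of mitochondrial genes that running induces in muscle, was at -0.02 ± 0.20 (adjusted p = 0.98). Ucp1 and Ppargc1a also changed sign under some settings.

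None of the genes in the 19 cell type lists passed. Of the 13 adipocyte genes 10 lay above 0 (median 0.35), and the median was 0.03, 0.09, 1.21 and 0.36 in the 4 runs. Set against AL, the adipocyte median was 0.04 in CR and -0.28 in AL+EX. With the run as a block 3 were higher (Cebpa, Retn and Aqp7), beside 4.01% of all genes, and with the block and without the third run none was. In the macrophage list 15 of 16 genes lay above 0 (median 0.19), with -0.52 in run 2 and 1.08 in run 3. All 9 tested B lymphocyte genes lay below 0 (median -0.31), with medians of 0.09, -0.04, -0.69 and -0.63 in the 4 runs. The B lymphocyte median was -0.044 without the third run, -0.12 without the arrays rich in these genes, 0.10 with the adipocyte mean as a covariate and 0.0067 with the muscle mean as one. No gene passed among 41 of collagens and matrix either (median 0.27). Under the run block 7 of the 41 were higher, Col6a1, Col6a2 and Col6a3 of collagen VI among them, and 1 was lower, beside 4.01% and 4.09% of all genes.

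Without a block the other pathway lists held no gene past the threshold: the glucocorticoid and fasting response (17 tested), adipogenic factors (15), milk proteins (7), proliferation (18), inflammation (14), interferon response (15), endoplasmic reticulum folding (21), amino acid stress (18), autophagy (19), sirtuins (11) and ribosomal proteins (30). Their medians lay between -0.18 for the glucocorticoid list and 0.17 for milk proteins, and a p above the threshold does not show that the groups were alike. Under the run block, beside 4.01% higher and 4.09% lower of all genes, 3 glucocorticoid genes were higher (Tsc22d3, Hsd11b1 and Angptl4) and 1 lower (Klf9), 3 of amino acid stress were higher (Asns, Psat1 and Psph) and 1 lower (Nars), 2 of autophagy were higher (Gabarapl2 and Ctsd) and 1 adipogenic gene was higher (Cebpa).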

How the data were processed

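Whole mammary gland RNA of 37 mice, 1 animal per array, was measured on Affymetrix MOE430A arrays. The deposited values are signal intensities on a linear scale, made with GCOS 1 per the submitters' processing notes. From the values, each array's mean after trimming 2% at each end was close to 500.2, so the arrays share a scale. Of 22690 probe sets 20380 named 1 gene, 691 several and 1555 none, and 64 were controls. The brightest probe set of each of 12393 genes was kept, and the 25% of genes with the lowest mean (under 6.71 on the log2 scale) were left out. Group means on log2(signal + 16) were fitted on all 37 arrays with limma 3.58.1 (R 4.3.3, 33 residual degrees of freedom, trended prior), with Benjamini-Hochberg adjustment over 9295 genes within each contrast and a threshold of 0.05. The procedure was tested on simulated data with independent noise for each gene and array. Those data held no run effect, so the test cannot show how far the calls depend on the runs. The number of arrays limits the precision.

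The members and gene lists were chosen with earlier results of these data known. The genes named are the 10 largest rises and 10 largest falls among called genes, up to 2 called genes in each direction of each list, and 17 fixed genes; others are said to be chosen after their values were seen. Alternatives covered scaling, offset, filter, probe set rule, prior, covariates, run as a block and arrays left out. Promoter sequences are RefSeq's (GRCm38.p6).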

Additional observations from a re-analysis of the deposited data

Results flagged for a closer look

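The arrays of 68 genes were examined in CR and in AL+EX, and in 9 of these gene and group combinations an array lay far from its group by Dixon's criterion, and chance flags about 1 in 20. On the log2(signal + 16) scale these were CR replicate 8 for Enpep (lowest, 9.96), Ccdc77 (lowest, 5.75) and Pdk4 (highest, 14.3), CR replicate 1 for Me1 (lowest, 13.6) and Tecr (lowest, 12.9), and CR replicate 9 for Defb1 (highest, 9.46) and Pdk1 (lowest, 9.55). In AL+EX they were replicate 8 for Arntl (highest, 8.34) and replicate 9 for Mlxipl (lowest, 10.5).

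The difference between CR and AL+EX itself varied between the runs of animal numbers for 4 of these 68 genes by limma's F test. The adjusted p was 0.0014 for Slc27a1, 0.022 for Mllt11, 0.024 for Ltc4s and 0.048 for Lep.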

How the results depend on the processing

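The count of 183 genes moved by over 1.5 times under these settings. It was 90 with median centring, 13 without the 15 arrays rich in B lymphocyte genes, 68 with the adipocyte mean as a covariate, 12 without AL+EX replicates 6 and 7, 0 without run 3 (limma, 630 genes with an unadjusted p under 0.05) and 82 without run 4. With the run as a block it was 753, with median centring added 679, and on the CR and AL+EX arrays alone 668. With the block it was 66 without AL+EX replicates 6 and 7, and 651, 680, 10 and 528 without runs 1, 2, 3 and 4. Leaving out 1 array gave 56 to 295. Settings without arrays have fewer samples, and otherwise the cause was not tested. Among the 68 genes examined above, all 52 that passed kept their direction in every setting that gave a value. Those 52 were chosen on the same arrays that the settings refit, so an unchanged sign was likely from the start. Other called genes in the text, such as Son, Scaf11, Rbm25 and Neat1, were not among the 68.

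Among the 68 genes, signs reversed only in genes that did not pass. Scd1 was at 0.20 with the mean of probe sets, 0.14 with array weights, 0.082 without the arrays rich in B lymphocyte genes, 0.012 with the muscle covariate, 0.029 without AL+EX replicates 6 and 7 and 0.044 without run 4. Mest was at 0.042 with median centring, 0.037 with quantile normalization, 0.014 with the B lymphocyte covariate, 0.058 with the adipocyte covariate, 0.044 without run 3 and 0.024 without run 4, and with the block at 0.054 (median centring), 0.025 (without run 3) and 0.050 (without run 4). Sfrp5 was at -0.011 without run 3, and Pdk4 at -0.036 with the block and without run 4. Per2 was at 0.079 with the mean of probe sets, 0.031 without the arrays rich in B lymphocyte genes, 0.066 with the adipocyte covariate and 0.067 without run 4. With the block Per2 was at 0.036 (median centring), 0.16 (without run 4 and the arrays rich in B lymphocyte genes) and 0.14 (without run 4). Ucp1 was at 0.038 with the adipocyte covariate, 0.17 without run 3 and 0.054 with the block added. Ppargc1a was at 0.043 with median centring, 0.034 with quantile normalization, 0.090 without the arrays rich in B lymphocyte genes, 0.18 with the adipocyte covariate, 0.065 without run 3 and 0.029 without run 4. With the block Ppargc1a was at 0.048, on the CR and AL+EX arrays alone at 0.051, with median centring at 0.10 and without AL+EX replicates 6 and 7 at 0.088. With the block it was at 0.22 without run 4 and the arrays rich in B lymphocyte genes, and at 0.066, 0.064 and 0.12 without runs 1, 3 and 4. Without 1 array the ranges were -0.20 to 0.061 for Scd1, -0.11 to 0.044 for Mest, -0.17 to 0.032 for Per2, -0.47 to 0.0047 for Ucp1 and -0.11 to 0.080 for Ppargc1a.

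No paired analysis was possible because the animal numbers are unique and the groups share none.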
